A study of Rattus with 4 samples.

Results

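The genes described here encode 10 proteins that recognise the 3' splice site and the branch point: U2af1, U2af2, Sf1, Sf3a1, Sf3a2, Sf3b1, Sf3b2, Sf3b3, Sf3b4 and U2surp. They were chosen by name, with earlier results of these data known. Every peak that the submitters assigned to one of them was taken from both lists of RNA regions bound by RBM25. This gave 11 of the 2696 peaks of replicate 1 and 35 of the 8108 peaks of replicate 2, or 46 of 10804 in all. Of the 10 genes, 7 had a peak in at least 1 list (4 genes in replicate 1 and 6 in replicate 2), and 3 had a peak that recurred at the same position on the same strand. Sf3a1 and Sf3a2, both of the SF3A complex, and Sf3b4 had no peak in either list.

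RBM25 is an RNA-binding protein that associates with the U1 snRNP and takes part in the choice of splice sites. At the other end of an intron, SF1 binds the branch point while the U2AF heterodimer of U2AF1 and U2AF2 binds the terminal AG and the polypyrimidine tract. The U2 snRNP then replaces SF1, and its SF3A and SF3B complexes hold the branch point duplex. Transcripts of splicing factor genes are themselves alternatively spliced in many mammalian tissues, often with an exon that leads to decay of the transcript.

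The series used the rat line H9C2, which consists of myoblasts from embryonic heart, and has 4 samples: 2 RBM25 immunoprecipitates (IP) and 2 inputs. RNA and protein were cross-linked by ultraviolet light, and the RNA was digested with micrococcal nuclease before stranded libraries were made. The design text speaks of cells with raised RBM25 expression for an RNA-seq experiment, and the labels do not say whether the cells of the IP carried it too. The inputs were not analysed here, and the labels do not state that the 2 IPs were made from separate cultures.

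Peaks were 50-nt bins on a fixed grid or runs of such bins, and their height is given as tags, the authors' signal. No peak was below 19 tags in replicate 1 or below 20 tags in replicate 2, and the list of replicate 2 was 3.01 times as long. Library depth is unknown, so tags were not compared as amounts of RNA. Of 12 muscle and mesenchymal marker genes, 7 had a peak (Cald1, Tpm1, Col1a1, Acta2, Tagln, Mef2c and Vim), while Des, Actc1, Myog, Myod1 and Myf5 had none. Of 6 cardiomyocyte markers Tnnt2 had peaks, 7 in replicate 1 and 3 in replicate 2, and the other 5 had none. The 3 endothelial and 3 immune markers had none, but a peak list does not measure expression. Shares over peaks or genes of the lists chosen here are given with 95% Wilson intervals, which cover counting error only. Peaks of 1 gene share their transcripts, and no test was run on the 10 genes.

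As a background, 7.61% of the 23148 protein-coding genes in a RefSeq name table had a peak in either list, and 2.62% had a recurring peak. That table can include genes without RNA in these cells. Among the 1914 genes with a peak in either list, 34.1% had a recurring peak, beside 3 of 7 here. Peaks of the 7 genes were unevenly spread: Sf3b2 had 15 over both lists, Sf1 14, U2af2 10 and U2af1 4. Sf3b1, Sf3b3 and U2surp had 1 each.

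**Figure D1:**
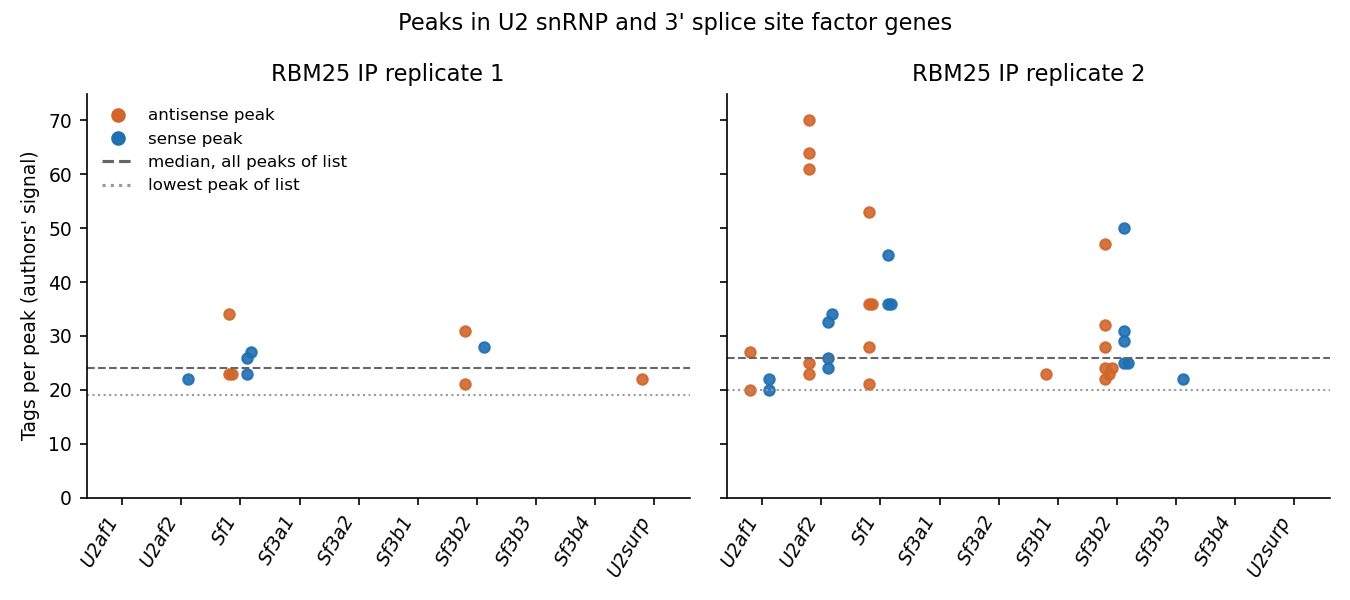
Tags per peak (vertical axis, the authors' signal) for each of the 10 genes in RBM25 IP replicate 1 (left) and replicate 2 (right); each point is 1 peak (orange antisense, blue sense), and lines mark the median and the lowest peak of the list. Replicate 1 peaks lie between 21 and 34 tags, and in replicate 2 the highest points are the 3 antisense peaks of U2af2 at 61, 64 and 70 tags.

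Sf1, which encodes the branch point binding protein, had 6 peaks in replicate 1 and 8 in replicate 2, and all 6 of replicate 1 recurred. They formed 3 positions on chromosome 1 (mRatBN7.2), each with a sense peak on the plus strand and an antisense peak on the minus strand in both lists. All 3 lay within 750 nt, and in all of them the bin held a boundary between coding exon and intron.

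At chr1:203677850-203677900, where a fraction of 0.68 of the bin was coding sequence and 0.32 intron, the sense peak of Sf1 counted 23 tags in replicate 1 against 36 in replicate 2. The antisense peak had the same values, 23 and 36. At chr1:203678250-203678300, with 0.18 coding and 0.82 intron, the sense peak had 26 and 36 tags and the antisense peak 23 and 36. The highest position was chr1:203678550-203678600, with 0.44 coding and 0.56 intron. There the replicate 1 list gave 27 sense and 34 antisense tags, and the replicate 2 list 45 sense and 53 antisense tags. Both strands were thus about equally high at each of the 3 positions, and both were higher in replicate 2. Beyond these, replicate 2 had antisense peaks of Sf1 with 28 tags at chr1:203670400-203670450 and with 21 tags at chr1:203678750-203678800, and neither was in replicate 1. Of the 1914 genes with a peak, 14.3% had a bin called on both strands of both lists and 1.67% (32 genes) had at least 3 such bins, as Sf1 did. Most genes had too few peaks for this: of the 103 genes with at least 6 peaks in replicate 1, 31.1% had at least 3 such bins, and 22.3% had all of their replicate 1 peaks recurring.

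U2af2 encodes the large subunit of U2AF, which contacts the polypyrimidine tract. It had 1 peak in replicate 1 and 9 in replicate 2, on chromosome 1 over 12750 nt. The recurring peak was a sense peak on the minus strand at chr1:68765600-68765650, a bin that was 0.5 coding sequence and 0.5 intron, with 22 tags in the replicate 1 list and 34 in that of replicate 2. Replicate 2 also had an antisense peak of 25 tags in that bin, and replicate 1 had none.

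The highest peaks of all 10 genes were antisense peaks of U2af2, and replicate 1 had no peak at any of them. In replicate 2 they had 61 tags at chr1:68773000-68773050, 70 tags at chr1:68773300-68773350 and 64 tags at chr1:68778300-68778350. Peaks of at least 70 tags made up 2.84% of the replicate 2 list. The third place had no sense peak. In replicate 2, 13.4% of the 142 genic antisense peaks with at least 64 tags had no opposite-strand peak in their bin. Sense tags were lower at the other places: 26 in the first bin and 32.5 in a peak of 2 bins at the second. The antisense peak was thus 2.35 times the sense peak in the first bin. At the second it was 2.15 times, but there 1 antisense bin was set against a sense peak of 2 bins. The sense signal of the shared bin alone is not known. The median ratio was 1.04 over all 2856 bins of replicate 2 with a peak on both strands. A ratio of at least 2.35 was found in 0.385% of those bins, taken at any height. The U2af2 bins were singled out for their high antisense peaks, which favours a high ratio. No share among bins of like antisense height was computed. At chr1:68774150-68774200, 850 nt from the second, the strands had 23 antisense and 24 sense tags in a bin wholly in coding sequence. Of the genic replicate 2 peaks with at least 61 tags, 73.9% did not recur in replicate 1, beside 79.6% of all genic replicate 2 peaks.

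U2af1 encodes the small subunit, which reads the AG at the 3' end of introns. All 4 of its peaks were in replicate 2, on chromosome 20 within 350 nt, and they had 20 to 27 tags. In the bin chr20:9744050-9744100, wholly coding, the antisense peak had 27 tags and the sense peak 22. A sense peak with 20 tags at chr20:9743750-9743800 held 0.2 coding sequence and 0.8 intron, and an antisense peak at chr20:9743950-9744000 also had 20 tags. Those 2 peaks stood at the lowest value of the list, so their lack in the shorter list of replicate 1 cannot be read as a difference.

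**Figure D2:**
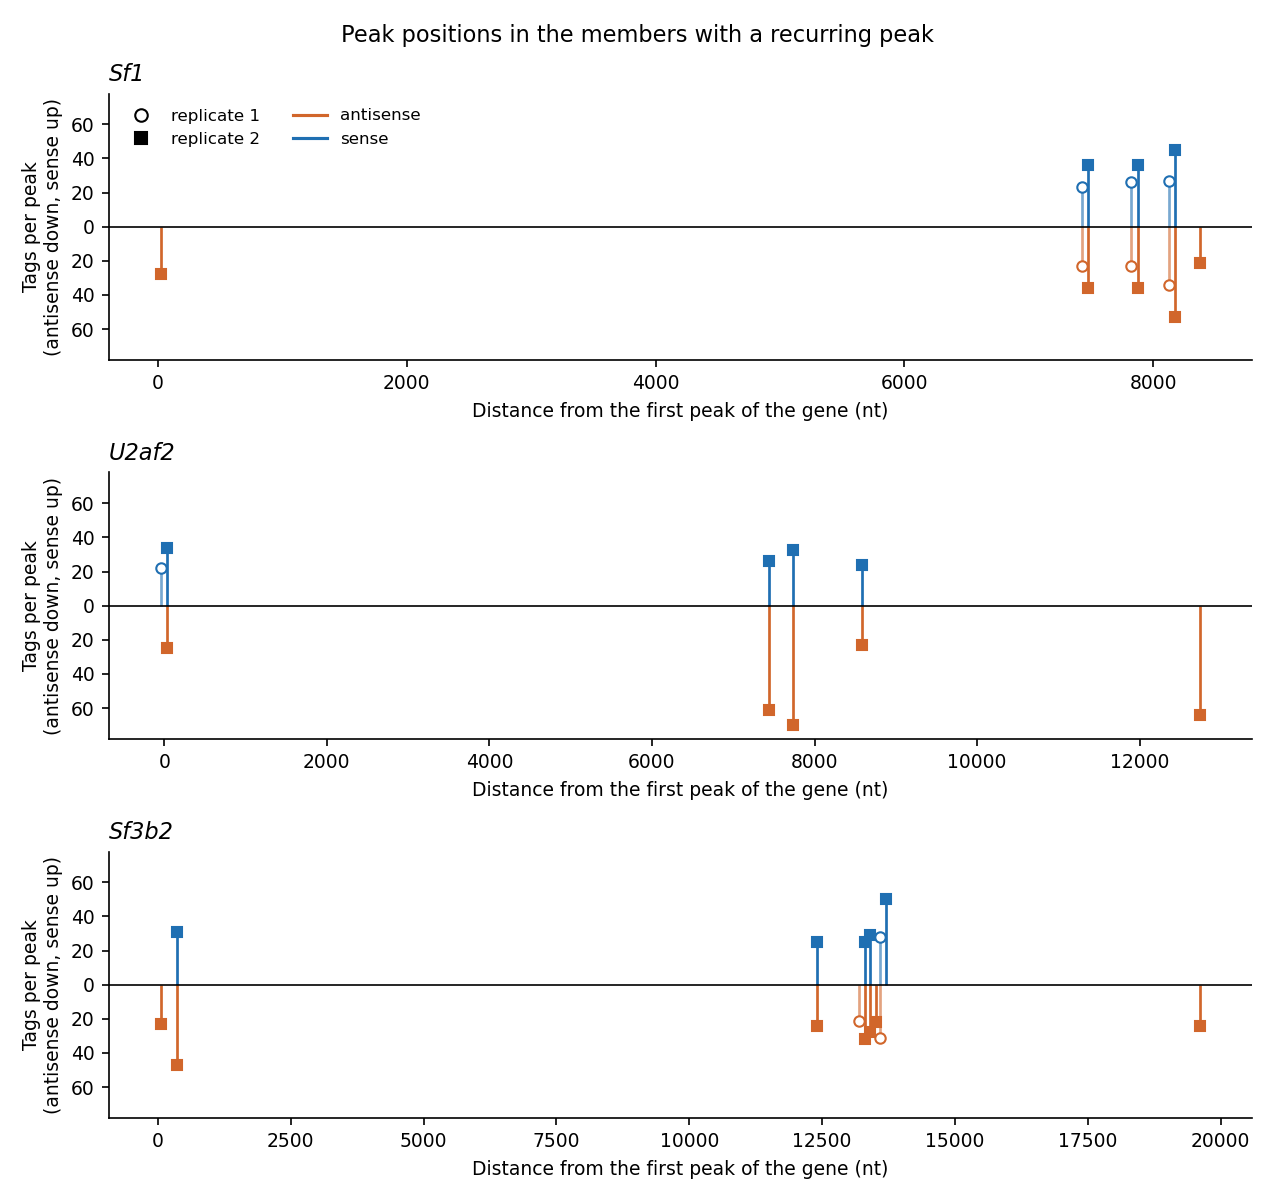
Peaks of Sf1, U2af2 and Sf3b2 by distance in nt from the first peak of the gene on the reference (horizontal axis) and by tags per peak (vertical axis, antisense drawn downwards and sense upwards); open circles are replicate 1 and filled squares replicate 2, shifted slightly apart. Sf1 shows 3 positions with all 4 peaks, while the tall antisense peaks of U2af2 are in replicate 2 alone.

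The SF3B complex clamps the branch point, with SF3B1 as its largest subunit. Among its 4 genes given here, Sf3b2 had 3 peaks in replicate 1 and 12 in replicate 2, Sf3b1 and Sf3b3 had 1 each in replicate 2, and Sf3b4 had none. SF3B2 and SF3B4 bind each other within the complex. The 12 replicate 2 peaks of Sf3b2 are a number that 7.04% of the 1819 genes in that list reached. They covered 8 positions over 19600 nt of chromosome 1, of which 4 stood within 450 nt.

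In Sf3b2 the recurring sense peak lay at chr1:202584650-202584700, with a fraction of 0.54 coding and 0.46 intron, with 28 tags in replicate 1 against 50 in replicate 2. The antisense strand of the same bin had 31 tags in replicate 1 and no peak in replicate 2, where the lowest peak had 20 tags. The 2 lists thus differed in strand at this bin, although the sense peak was higher in replicate 2. Of the 551 genic replicate 1 peaks with at least 31 tags on either strand, 33.8% did not recur in replicate 2. Among all sense peaks of replicate 2 with at least 50 tags, 21.8% had no antisense peak in their bin. The other recurring Sf3b2 peak was antisense, at chr1:202584250-202584300, with 21 tags in replicate 1 against 32 in replicate 2. Its bin had a sense peak of 25 tags in replicate 2 and none in replicate 1.

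The remaining replicate 2 peaks of Sf3b2 included a pair at chr1:202571300-202571350, a bin that was 0.5 coding and 0.5 intron, with 47 antisense and 31 sense tags. This ratio of 1.52 was reached by 4.34% of replicate 2 bins with both strands, taken at any height. Another 2 pairs were nearly even, with 24 antisense and 25 sense tags at chr1:202583350-202583400, and 28 antisense and 29 sense tags at chr1:202584350-202584400. Lone antisense peaks with 22 to 24 tags stood at another 3 positions.

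The single peak of Sf3b1 was antisense with 23 tags at chr9:56511750-56511800. That of Sf3b3 was a sense peak with 22 tags at chr19:38798850-38798900, in a bin with 0.38 coding sequence and 0.62 intron. U2surp, which encodes an SR-related protein of the U2 snRNP, had an antisense peak with 22 tags at chr8:96028350-96028400 in replicate 1 alone. All 3 stood within 3 tags of the lowest peak of their list, as did 12 of the 46 peaks in all. In replicate 1 this was 3 of 11 peaks (27.3%, 9.75 to 56.6), beside 40.4% of all genic peaks. In replicate 2 it was 9 of 35 (25.7%, 14.2 to 42.1), beside 34.2%.

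Recurrence was first described over peaks. Of the 11 replicate 1 peaks in the 10 genes, 9 recurred in replicate 2 (81.8%, 52.3 to 94.9), beside 62.1% of all genic peaks of replicate 1. In the other direction 9 of 35 did (25.7%, 14.2 to 42.1), beside 20.4%. Both intervals hold the value over all genic peaks, and 6 of the 9 recurring peaks belong to Sf1. All 5 sense peaks of replicate 1 recurred (100%, 56.6 to 100) and 4 of its 6 antisense peaks did (66.7%, 30.0 to 90.3). Over all genic peaks of replicate 1, 64.6% of sense peaks recurred, and the antisense share had an interval of 57.4 to 62.5. In replicate 2, 5 of 15 sense peaks did (33.3%, 15.2 to 58.3), beside 19.9%. Of its antisense peaks, 4 of 20 did (20.0%, 8.07 to 41.6), beside 20.9%. Each interval of the 10 genes holds the genic share of its own strand. Sense was not tested against antisense, so no preference for a strand can be read. The 9 replicate 2 peaks that recurred had 32 to 53 tags, and the 26 that did not had 20 to 70 tags with a median of 25. None of the 20 replicate 2 peaks under 30 tags recurred, which allows a share of up to 15.0% (3 counts of 20), beside 14.2% of such peaks over all genes. At 30 to 40 tags, 6 of 8 recurred, beside 29.4% over all genes, and these 6 were 4 peaks of Sf1, 1 of U2af2 and 1 of Sf3b2. At 40 tags and above, 3 of 7 recurred (42.9%), beside 33.0% over all genes.

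Tags were higher in replicate 2 in all 9 recurring pairs, beside 76.6% of the 1609 genic pairs. The ratio of replicate 2 over replicate 1 ran from 1.38 to 1.79 with a median of 1.57. Over all genic pairs the median was 1.25 and the middle part of the distribution, from the lower to the upper quartile, ran from 1.04 to 1.50. Of all genic pairs, 23.6% had a ratio within the range of the 9. Spearman's rho between the lists was 0.974 over the 9 pairs and 0.429 over all genic pairs. This is a description, since the 9 pairs come from 3 genes, with both strands of a bin counted apart.

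**Figure D3:**
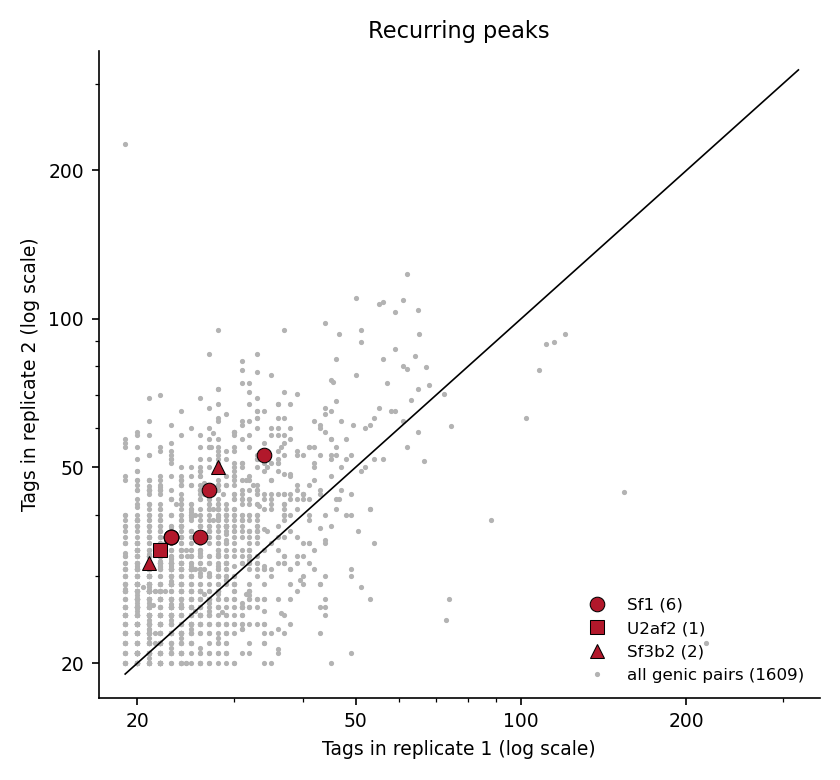
Tags of recurring peaks in replicate 1 (horizontal axis, log scale) and replicate 2 (vertical axis, log scale), for the 9 pairs of Sf1, U2af2 and Sf3b2 (red) and all 1609 genic pairs (grey); the line marks equal tags. All 9 red symbols lie above the line, 3 of them on the same point.

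Most sense peaks of the 10 genes held a boundary between exon and intron. In replicate 1 this was 5 of 5 sense peaks (100%, 56.6 to 100), beside 67.8% of all sense peaks, and in replicate 2 it was 12 of 15 (80.0%, 54.8 to 93.0), beside 71.2%. The 3 sense peaks without a boundary lay wholly in coding sequence, 1 each in U2af1, U2af2 and Sf3b2. By position, the 46 peaks occupied 24 places, and 15 of these had a sense peak that gives the class of the bin. Of these 15 places, 12 held a boundary and 3 were wholly coding. None lay wholly in an intron, which allows a share of up to 20.0% (3 counts of 15). Counted as peaks of both lists, 0 of 20 sense peaks did (0.00%, 0.00 to 16.1), beside 4.82% of all sense peaks. The other 9 places had antisense peaks alone, whose deposited class names no exon or intron. The coding share of the boundary bins ran from 0.1 in Sf3b2 to 0.76 in U2af2. Since bins lie on a fixed grid, this range does not place the signal relative to the splice site. Whether a boundary was the 5' or the 3' splice site of its intron was not analysed here.

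Antisense peaks were 6 of 11 in replicate 1 (54.5%, 28.0 to 78.7), beside 53.7% of all genic peaks, and 20 of 35 in replicate 2 (57.1%, 40.9 to 72.0), beside 50.7%. A peak on the opposite strand of the same bin was found for 8 of 11 peaks in replicate 1 (72.7%, 43.4 to 90.3) and for 24 of 35 in replicate 2 (68.6%, 52.0 to 81.4). Over all genic peaks these shares were 45.9% and 70.3%. All these intervals hold the value over all genic peaks. Among the 4 bins of replicate 1 with both strands, the antisense over sense ratio of tags was 0.885 to 1.26, with 3 of the bins in Sf1. In the 12 such bins of replicate 2 it was 0.735 to 2.35 with a median of 1.09, and the ends of that range were both in U2af2. Sf1 stayed between 0.885 and 1.26 in both lists. Over all genic bins with both strands, the median was 1.05 in replicate 1, with quartiles of 0.926 and 1.21. In replicate 2 it was 1.04, with quartiles of 0.952 and 1.17.

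**Figure D4:**
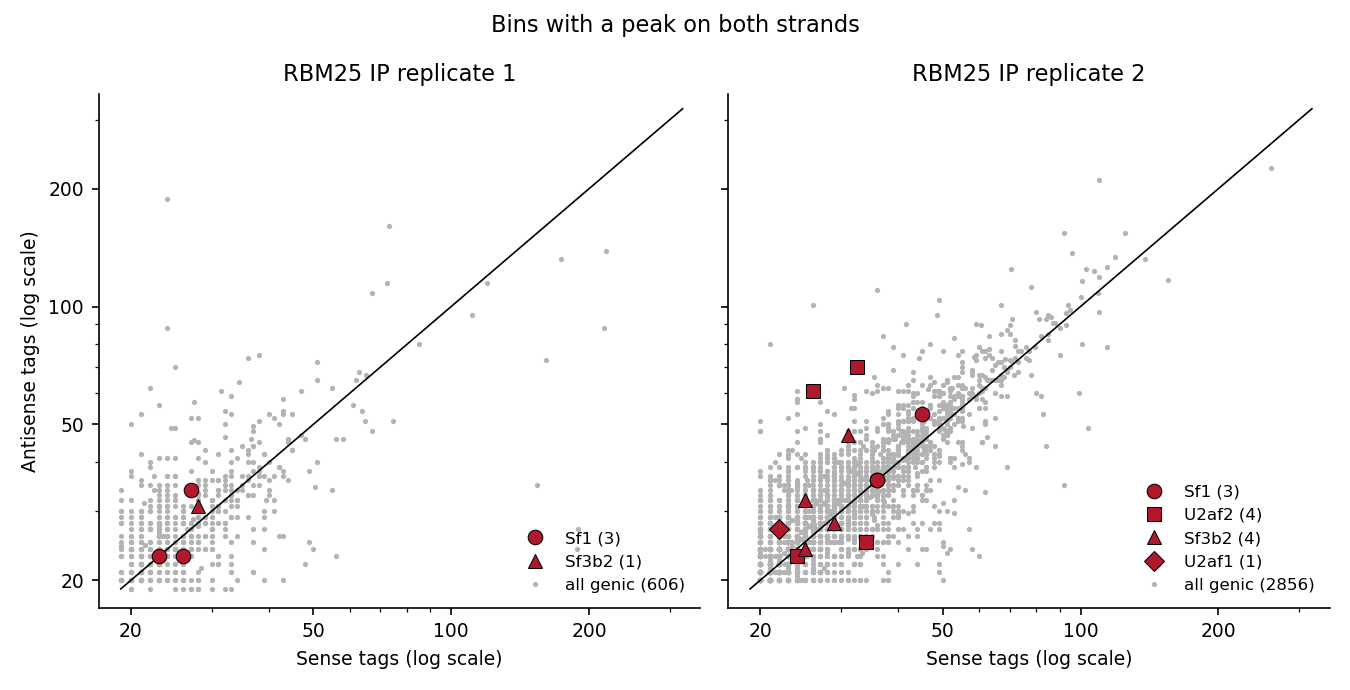
Antisense tags (vertical axis, log scale) against sense tags (horizontal axis, log scale) in bins with a peak on both strands, for the 10 genes (red) and all genic bins (grey), in RBM25 IP replicate 1 (left) and replicate 2 (right); the line marks equal tags. The 3 Sf1 bins lie on or near the line in both lists, and in replicate 2 a pair of U2af2 bins lies far above it, at 61 and 70 antisense tags.

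A wider list of 33 genes of the U2 snRNP and the 3' splice site gave 11 with a peak and 4 with a recurring peak (12.1%, 4.82 to 27.3), beside 3 of the 10 genes above (30.0%, 10.8 to 60.3). The 4 were Ddx46, Ddx39b, Rbm5 and Dnajc8. Of wider-list genes with a peak, 4 of 11 had a recurring one, beside 34.1% of all genes with a peak. Over protein-coding genes of the name table, 7.61% had a peak and 2.62% a recurring peak. Ddx46, the RNA helicase that remodels the U2 snRNP before it engages the branch point, had 10 peaks in replicate 1, all recurring, and 15 in replicate 2. Its strongest recurring peak, antisense, had 64 tags in replicate 1 against 84 in replicate 2. Ddx39b, a helicase that binds U2AF2, had 2 and 13 peaks, and its recurring sense peak at chr20:3572850-3572900 had 36 tags in replicate 1 against 51 in replicate 2. Rbm5, a splicing regulator that contacts the 3' splice site machinery, reached 20 and 31 tags at its strongest recurring peak, and Dnajc8, the gene of a J-domain protein found in spliceosomes, 19 and 47, both antisense.

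Among the rest of that list, 7 genes had a peak without recurrence. Rbm10 had 1 in each list, and Sf3a3, Snrpa1, Puf60, Zrsr2, Smndc1 and Dhx38 had peaks in replicate 2 alone, with at most 31 tags. Sf3a3 was thus the gene of the SF3A complex with peaks, 2 sense and 2 antisense, none above 29 tags. None of the 7 Sm core genes and none of the small SF3B genes Sf3b5, Sf3b6 and Phf5a had a peak. Gene length and expression were not used here, so a lack of peaks was not separated from a short or little expressed gene.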

How the data were processed

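Per the submitters' processing notes, HISAT2 and the rat build mRatBN7.2 were used; how peaks were called and filtered, and whether inputs entered, is not given in the sources used here. Both deposited peak lists, matched to the IP samples by name, give tags (a signal), a p-value, a length and an annotation for each peak. The deposited tags signal was whole in 51-nt peaks and not known to be scaled for depth. The deposited p-value served only to set a stricter list. Genes were taken from the assigned identifier. A peak recurred where it shared at least 1 bin of 50 nt with a peak of the other list on the same strand. A boundary peak is a sense peak with exon and intron sequence. Symbols of all 10 genes and of the wider list matched a RefSeq name table (assembly GRCr8, names alone). All 10 genes were named; wider-list genes were named where a peak recurred, and others after their values were seen. The genes and lists were chosen with earlier results of these data known. Overlap counting was tested on simulated lists. Tables were made with pandas 2.3.3 in Python 3.11.15 (numpy 2.4.6), intervals with scipy 1.17.1 and figures with matplotlib 3.10.9.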

Additional observations from a re-analysis of the deposited data

How the results depend on the processing

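Counts of genes depended on low peaks, while shares mostly kept to the interval of the main value. With peaks at or below the median p-value of each list, genes with a peak numbered 4 in place of 7, the peaks of Sf3b2 8, of U2af2 6 and of U2af1 1, those of Sf3b1, Sf3b3 and U2surp 0, and wider-list genes with a recurring peak 2 in place of 4. With at least 30 tags, 3 genes had a peak and 1 a recurring peak, 50% of replicate 1 peaks recurred (1 of 2), 100% of sense peaks held a boundary and 2 wider-list genes had a recurring peak. Leaving out a replicate gave 4 to 6 genes with a peak and boundary shares of 80.0% to 100%, around 85.0%, with replicate 2 left out at the ends of 4 genes and 100%. Identical ends and either strand, which bear on recurrence alone, moved none of the recurrence values by more than their interval or 1.5 times, nor did 51-nt peaks alone for the counts and shares it was run on. The fewer peaks in each setting are its own construction. An antisense class from another column was not run, since the lists give no gene strand. No paired analysis was possible because only the IP lists were analysed and no test was made.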

Other observations

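The 6 recurring pairs of Sf1 had nearly the same ratio of replicate 2 over replicate 1, a comparison chosen after the values were seen. The highest ratio was 1.20 times the lowest. These 6 pairs are both strands of 3 bins within 750 nt, and 3 of the pairs had the same 23 and 36 tags. Over the 59 genes with at least 6 recurring pairs, the median of this spread was 2.23, and 1 gene, Sf1 itself, had a spread that small. Sf1 was picked for this closeness, so its rank follows in part from the choice. Over the 21 genes with exactly 6 pairs the median was 1.72. The median ratio of Sf1, 1.57, was reached by 8 of the 59 genes, Sf1 included.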
